A study of Mus musculus with 2 samples.

Results

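Mir143 and Mir145a encode miR-143 and miR-145a, microRNAs used as markers of smooth muscle cells and of the pericytes around capillaries. Both were found by matching the Ensembl identifiers of the count tables to the GENCODE M21 annotation, and they are 2 of the 2202 microRNA genes measured. The material was gastrocnemius, a calf muscle, from male B6CASTF1/J mice aged 36 days, hybrids of C57BL/6J with the wild-derived CAST/EiJ strain. There was 1 group of 2 libraries, called replicate 1 and replicate 2, with no treatment and no second genotype, and the labels describe a different male for each. The whole muscle was used, so the libraries hold RNA of muscle fibres, vessels, nerve and connective tissue together.

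The pair is known as a bicistronic cluster, in which both hairpins are cut from a common primary transcript. In smooth muscle this transcript is driven by serum response factor with its coactivator myocardin. The mature microRNAs are known to favour the contractile state of these cells, miR-145 by repressing Klf4 and Klf5 and miR-143 by repressing Elk1, all transcription factors linked with the proliferative state. Vessel walls and fibroblast-like mesenchymal cells are their best known sites, while muscle fibres are better known for miR-1, miR-133 and miR-206.

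Only microRNAs were counted, so protein-coding markers of smooth muscle or pericytes are not analysed here, and the cell type named for the pair was not tested. The striated muscle microRNA Mir206, at 27262 ± 2019 CPM (SD, n = 2), marks the tissue as skeletal muscle. CPM is the number of reads on a gene's strand per 1000000 reads counted on any microRNA gene. In bulk tissue such as this, fewer cells of a type and less RNA per cell cannot be told apart.

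Mature sequences are shown for 4 microRNAs against which the pair is set below, to mark which molecules those are, as RefSeq gives them on GRCm38.p6. Capitals mark the seed, bases 2 to 8 counted from the 5′ end, which pairs with target messenger RNAs. miR-126a-3p belongs to endothelium, miR-29a-3p comes from the gene closest to Mir145a in level, miR-214-3p belongs to fibroblasts and mesenchyme, and miR-206-3p belongs to muscle fibres.
miR-126a-3p: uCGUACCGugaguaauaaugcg
miR-29a-3p: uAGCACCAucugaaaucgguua
miR-214-3p: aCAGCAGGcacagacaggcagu
miR-206-3p: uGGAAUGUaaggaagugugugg
The 4 seeds differ from each other. Counts in the tables are per gene, so the 5′ and 3′ arms of a hairpin cannot be told apart in any value given here.

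Mir143 was one of the microRNA genes with the most counted reads. Its counts were 342752 (82893 CPM) in replicate 1 and 293125 (91040 CPM) in replicate 2. Both libraries placed it at rank 4, and its mean was 86966 ± 5761 CPM (SD, n = 2). About 1 counted read in 12.1 came from Mir143 in replicate 1, and 1 in 10.98 in replicate 2.

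As shares of the counted reads these values are 8.29% in replicate 1, with an exact Clopper-Pearson 95% interval of 8.26 to 8.32, and 9.10% in replicate 2, with 9.07 to 9.14. The intervals do not overlap. Like all intervals here, they cover counting error and leave out PCR duplication and other library noise, so they set no test between animals, and as shares of all reads the intervals did overlap.

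Mir145a was lower but, by counted reads, still among the more abundant of the 261 genes that averaged 10 CPM or more. Its counts were 9940 (2404 CPM) in replicate 1 and 8365 (2598 CPM) in replicate 2. Its share was 0.240% in replicate 1 (interval 0.236 to 0.245) and 0.260% in replicate 2 (0.254 to 0.265). The mean was 2501 ± 137 CPM, which is rank 41, with rank 45 in replicate 1 and rank 38 in replicate 2.

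The SD between animals was 6.62% of the mean for Mir143 and 5.49% of the mean for Mir145a. The pair together held 8.53% of counted reads in replicate 1 and 9.36% in replicate 2.

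**Figure D1:**
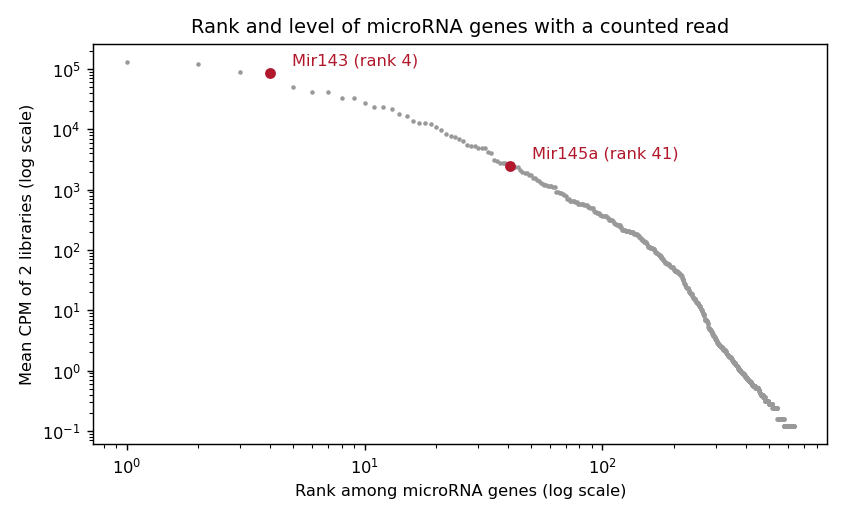
Mean CPM of each microRNA gene with a counted read (vertical, log scale) against its rank (horizontal, log scale). Mir143 at rank 4 and Mir145a at rank 41 are in red, and their bars, the SD of 2 libraries, are shorter than the symbols.

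The level of Mir143 lay between those of the endothelial Mir126a above it and the let-7 member Mirlet7g below it. Mir126a stood at 85413 CPM in replicate 1 and at 95833 CPM in replicate 2, so its range overlapped that of Mir143. Within each library Mir143 was the lower of these, with a log2 ratio of Mir143 over Mir126a of −0.04 in replicate 1 and −0.07 in replicate 2 (mean −0.06 ± 0.02, SD, n = 2). Mir126a overlaps Mir126b on the opposite strand, so this ratio needs strand-specific counts. The steps to Mir22 (119561 ± 13609 CPM, rank 2) and to Mirlet7g (49724 ± 1188 CPM, rank 5) and Mirlet7i (41638 ± 2970.2 CPM, rank 6) were larger than the spread, without overlap of the libraries.

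By Euclidean distance of log2(CPM + 1) over both libraries, the genes closest to Mir143 were Mir126a (0.09), Mir22 (0.65) and Mir378a (0.83). These distances rest on 2 libraries and describe closeness of level.

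Around Mir145a the order was not resolved. Mir130a (2743 ± 637 CPM) and Mir29a (2548 ± 112 CPM) stood just above it, and Mirlet7e (2442 ± 140 CPM) and Mir299a (2405 ± 518 CPM) just below. The libraries of all 4 overlapped those of Mir145a. Against Mir130a, Mirlet7e and Mir299a the ratio of Mir145a changed direction between the libraries. Its log2 ratio over Mir29a was −0.03 ± 0.02 (SD, n = 2), and Mir29a made up 50.7% of the reads of these 2 genes in replicate 1 (interval 49.97 to 51.4) and 50.3% in replicate 2 (49.5 to 51.04). Both intervals include equal amounts. Mir29a was also the closest gene over both libraries (distance 0.04), followed by Mir98 (0.14) and Mirlet7e (0.17).

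The members differed from each other far more than the animals did. Mir143 had 34.5 reads for each read of Mir145a in replicate 1 and 35.04 in replicate 2. On the log2 scale Mir143 over Mir145a was 5.11 in replicate 1 and 5.13 in replicate 2, with a mean of 5.12 ± 0.02 (SD, n = 2). Mir145a made up 2.82% of the pair's reads in replicate 1 (interval 2.76 to 2.87) and 2.77% in replicate 2 (2.72 to 2.83). These intervals overlap, but they cover counting error only, and a difference of the ratio between the animals was not tested. Unequal ligation and amplification of different microRNAs in library preparation is a known property of such data, and its part in this ratio was not tested.

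Both hairpins lie on the minus strand of chromosome 18 in mm10. Mir143 (ENSMUSG00000065445.3) runs from 61649196 to 61649258, and Mir145a (ENSMUSG00000065592.2) runs from 61647825 to 61647894. In the direction of transcription Mir143 comes before Mir145a, with 1301 bases between them. The annotation places 0 other genes over either hairpin, so neither is annotated as exonic, intronic or part of a UTR.

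The noncoding RNA gene Carmn, known from smooth muscle and heart, ends 366 bases before Mir143 on the same strand. Bvht, a noncoding RNA named Braveheart for its role in cardiac commitment of mouse cells, lies on the plus strand and ends 352 bases from Mir145a. The protein-coding gene Il17b, a cytokine gene, lies beyond Carmn at 61684887 to 61692538. None of these 3 is in the count tables.

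Within 1 Mb of the pair the tables held 6 other microRNA genes, and 3 of them had a counted read. Mir378a, an intronic microRNA of the metabolic regulator Ppargc1b, lies 250 kb away and had 130385 ± 10039 CPM. Mir6983 had 3 counts in replicate 1 and 1 in replicate 2, and Gm25301, opposite Mir378a, had 1 in replicate 1 and 0 in replicate 2. Mir5107, Mir7220 and Mir6982 had 0 in both libraries, for which the upper limit is 0.726 CPM (replicate 1) and 0.932 CPM (replicate 2). The abundant microRNA genes of this stretch of chromosome 18, by counted reads, were thus Mir378a and the pair.

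About 70.4% of all reads of replicate 1 and 73.3% of replicate 2 aligned to several loci, and such reads are taken here, from the layout of the tables, to be in no gene's count, which no source used here states. Of the 2202 hairpins, 1133 (51.5%) had 20 or more consecutive bases in common with another hairpin of either strand, and neither member was among them. That number includes genes annotated opposite each other at the same locus, such as Mir126a and Mir126b. Such overlap does not by itself make a read align to several loci. The longest stretch that the Mir143 hairpin shared with any other was 11 bases. For Mir145a it was 17 bases, shared with Mir145b, a related gene elsewhere on chromosome 18. Mir145b had 2 counts in replicate 1 and 0 in replicate 2. Reads cut short enough to lie within those 17 bases could be lost from both genes, and how many were is not analysed here.

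The counts of the pair were all on the strand of its genes. The column of reads on the opposite strand held 0 for Mir143 and 0 for Mir145a in both libraries. That allows up to 0.00102% of the same-strand reads for Mir143 and 0.0359% for Mir145a, in the shallower library. The column that ignores strand held the same counts as the same-strand column, 342752 and 293125 for Mir143 and 9940 and 8365 for Mir145a. The CPM did change in that column, as its total is smaller, to means of 115883 for Mir143 and 3332 for Mir145a.

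The ratio within the pair was set beside those of other microRNA neighbours. Adjacent microRNA genes on 1 strand with starts within 10 kb formed 136 pairs in which the higher gene had at least 10 counts in each library. Among the other 135 pairs, 58 (43.0%) had a ratio of counts + 0.5 at or above that of Mir143 over Mir145a. In 28 of the 136 the lower gene had 0 counts in both libraries, and such ratios depend on the 0.5 added. With 3 counts per library as the limit for those lower genes, and the library with the smaller bound, 46 of the 135 (34.1%) were at or above the pair, since 12 passed it through the added 0.5.

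The 3 pairs with the highest ratios of counts + 0.5 were of that kind, all from the imprinted Dlk1-Dio3 region of chromosome 12. By the same limit Mir434 was at least 1902-fold higher than Mir432. On the same terms Mir376c was at least 1171-fold higher than Mir654, and Mir154 at least 550-fold higher than Mir453. These bounds do not place them above Mir206 over Mir133b on chromosome 1, at 2010.5-fold with 52 and 46 counts of Mir133b. Mir133b shares 20 bases with another hairpin, so its counts can be too low and this ratio too high. The pair of Mir376c and Mir654 also holds a hairpin of that kind. Mir23b exceeded its neighbour Mir27b by a log2 ratio of 2.08 ± 0.03, less than the pair on chromosome 18.

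Where both genes had at least 10 counts in each library, 14 of the 83 other pairs (16.9%) were at or above Mir143 over Mir145a, and the median of the 83 was 4.59-fold. All but 3 of those 14 contain a hairpin that shares 20 bases with another, so reads aligned to several loci can lower one side. With such pairs left out as well, 3 of 40 (7.50%) were at or above it, and the median was 3.73-fold. Those 3, named after their values were seen, were Mir322 over Mir503 (88.4-fold), Mir132 over Mir212 (52.05-fold) and Mir30d over Mir30b (45.2-fold). A large imbalance between neighbours was therefore present at the miR-143 locus and at several others.

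The steadiness of the ratio between animals was also read against these pairs. Mir143 over Mir145a differed by −0.02 on the log2 scale between replicate 1 and replicate 2, while the median absolute difference of the 83 pairs was 0.15. A smaller difference was seen in 5 of the 83. Many of these pairs have fewer counts than the members, and counting error alone makes their ratios vary more.

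**Figure D2:**
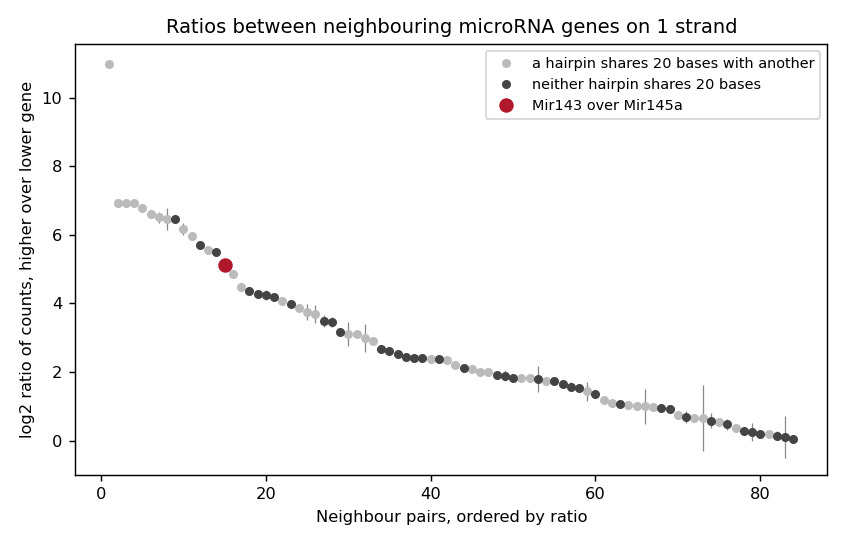
The log2 ratio of counts, higher over lower gene, for the 84 neighbour pairs with at least 10 counts of both genes in each library, in order of the ratio; vertical lines span the 2 libraries. Mir143 over Mir145a, in red at 5.12, lies below 14 pairs, and 3 of those are dark, with neither hairpin sharing 20 bases with another.

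Between the animals both members were slightly lower in replicate 1. With TMM scaling, which assumes that most genes do not differ, the log2 ratio of replicate 1 over replicate 2 was −0.30 for Mir143 (counting interval −0.31 to −0.30) and −0.28 for Mir145a (−0.32 to −0.24). That is 1.23-fold and 1.21-fold lower. These are single libraries on each side, with no replicate check and no test. The 261 genes that averaged 10 CPM or more served as background, of which 5.36% differed by more than 2-fold, and neither member was among them. Lower values in replicate 1, by any amount, were seen for 44.1% of the 261, or 20.3% under scaling to the total count and 51.0% with DESeq2 size factors, so the direction that the members share is also that of many other genes. Ratios at or below that of Mir143 belonged to 13.8% of the 261 genes, itself included.

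The size of the difference between animals, and for Mir145a its direction, depended on what the counts were divided by. Scaled to the total of counted reads, the log2 ratios were −0.14 for Mir143 and −0.11 for Mir145a, and the median of the 261 genes moved by 0.16 from its TMM value of 0.05. Relative to the median gene, Mir143 stood at −0.35 and Mir145a at −0.33 under TMM, and at −0.35 and −0.32 under the total count. Divided by all reads of the library, unmapped and multiply aligned ones included, Mir143 took 1.74% of replicate 1 (interval 1.732 to 1.743) and 1.75% of replicate 2 (1.742 to 1.755). On that basis Mir145a took 0.0504% of replicate 1 and 0.0499% of replicate 2, and the log2 ratios became −0.0090 for Mir143 and 0.014 for Mir145a. This last scale was chosen after seeing the data, and on it the counting intervals of the animals overlapped for both genes. On it the median of the 261 genes was 0.32, and 14.2% of them were lower in replicate 1. Both members thus stayed below the median gene on this scale too.

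Markers of the cells that share the muscle with smooth muscle were then set beside the pair, from lists chosen with earlier results known. The endothelial Mir126a, the single gene of its list, had a log2 ratio of replicate 1 over replicate 2 of −0.33, near those of the members. Its share was 8.54% in replicate 1 and 9.58% in replicate 2, against 8.53% and 9.36% for the pair.

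The fibroblast and mesenchyme list had the opposite sign, with 3 of 3 genes at 10 CPM or more higher in replicate 1. They were Mir214 at 0.34, Mir199b at 0.47 and Mir199a-2 at 0.32, and the fourth gene, Mir199a-1, had 1 count in replicate 1 and 0 in replicate 2. Mir214 and Mir199a-2 are neighbours on 1 strand, with starts 5554 bases apart, so the 3 genes are not 3 separate loci. The list held 0.140% of counted reads in replicate 1 and 0.0981% in replicate 2. All 3 kept this direction under scaling to the total count or with DESeq2 size factors, where the list's median was 0.51 or 0.29. Of the 261 genes, 44.1% were lower in replicate 1 under TMM, 20.3% under the total count and 51.0% with DESeq2 size factors. Being higher in replicate 1 was thus the common direction under the total count. Mir143 over Mir214 was 6.01 in replicate 1 and 6.65 in replicate 2 on the log2 scale, and Mir145a over Mir214 was 0.90 and 1.52, so that both members stood above the leading gene of this list in both animals. Mir199a-2, Mir199b and Mir199a-1 share 20 bases with another hairpin, so their counts can be too low.

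Striated muscle microRNAs had the sign of the pair. In this list 7 of 8 genes were lower in replicate 1, against 44.1% of the 261 genes, and the median was −0.33. Mir206 stood at −0.32, Mir486, shared with red cells, at −0.39, Mir1a-2 at −0.31 and the myosin-intron Mir499 at −0.38, and Mir133a-1 at 0.16 was the exception. Mir143 over Mir206 was 1.68 in replicate 1 and 1.67 in replicate 2 on the log2 scale (mean 1.67 ± 0.01, SD, n = 2), so Mir143 averaged 3.19-fold above the most counted gene of this list. Mir206 was 10.9-fold above Mir145a. The 10 genes together held 2.74% of counted reads in replicate 1 and 3.04% in replicate 2. The list can be undercounted, since 6 of its 10 genes, among them those of miR-1 and miR-133, share 20 bases with another hairpin, and how many reads that costs was not measured.

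A list of 14 other microRNAs known from studies of smooth muscle phenotype had 10 genes at 10 CPM or more. Of these, 6 were lower in replicate 1 (median log2 ratio −0.11, turning to 0.06 with total counts). Among the 261 genes 44.1% were lower, or 20.3% with total counts. Mir21a, induced in injured vessels, led the list at 33610.1 ± 228 CPM. Mir143 exceeded Mir21a by a log2 ratio of 1.31 in replicate 1 and 1.43 in replicate 2. Mir10a had 4255 ± 26.3 CPM, Mir26a-2 had 564 ± 105 CPM and Mir34a had 438 ± 45.2 CPM. Mir221, which with Mir222 is known to favour proliferation of smooth muscle cells, had 351 ± 33.97 CPM, and Mir222 had 39.1 ± 0.423 CPM. Mir490 had 3 counts in replicate 1 and 6 in replicate 2. Besides Mir21a, only Mir10a of this list was above Mir145a by counted reads. Of the 14 genes, 6 share 20 bases with another hairpin, among them Mir26a-2, so their counts can be too low. Their place relative to Mir145a is therefore not settled.

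Blood cell microRNAs were far below Mir143, at 0.225% of counted reads in replicate 1 and 0.229% in replicate 2 for 6 genes. Mir155 led at 791 ± 113 CPM, followed by Mir150 at 509.9 ± 28.2, Mir223 at 368 ± 95.96 and the red cell Mir451a at 311 ± 0.523 CPM. In replicate 1, 4 of the 6 genes were lower, where 44.1% of the 261 genes were. The median of the list was −0.12, turning to 0.04 with total counts. Its whole share of counted reads was close to that of Mir145a alone. Of the 6 genes, 2 share 20 bases with another hairpin, Mir451a among them, so this share can be too low.

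**Figure D3:**
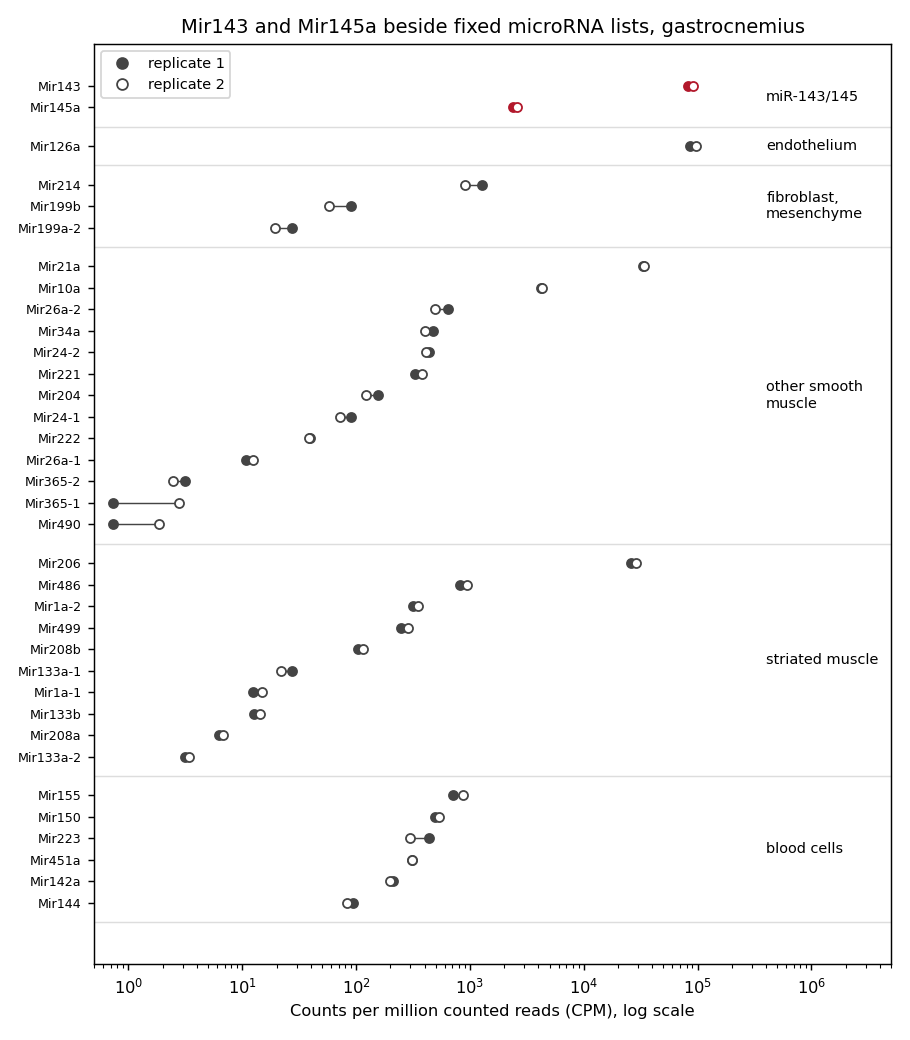
CPM (log scale) of Mir143 and Mir145a in red and of the fixed lists in grey, with replicate 1 filled and replicate 2 open; genes with a mean under 1 CPM are not drawn. Mir143 lies level with Mir126a, and the fibroblast and mesenchyme genes are the list in which every gene drawn is higher in replicate 1. Under this scaling to the total count, 20.3% of the 261 genes averaging 10 CPM or more were lower in replicate 1.

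**Figure D4:**
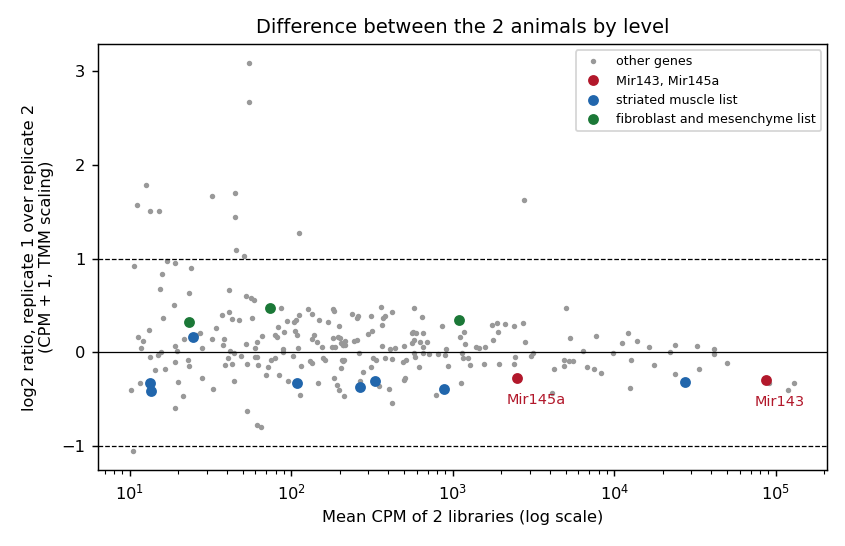
The log2 ratio of replicate 1 over replicate 2 (CPM + 1, TMM scaling) against mean CPM (log scale) for 261 genes, with 2-fold marked by dashed lines. Mir143 and Mir145a, in red at −0.30 and −0.28, lie among most striated muscle genes in blue and below the 3 fibroblast and mesenchyme genes in green.

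Whether the animals differed in vessel content, in dissection or in library preparation was not tested, as the labels give 1 library per animal. For depth, replicate 1 had 4134880 counted reads of 19726010 (20.96%) and replicate 2 had 3219740 of 16764463 (19.2%). The files are not 1 library entered in duplicate, since over 362 genes their counts gave a chi-square per degree of freedom of 111.5.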

How the data were processed

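MicroRNA-seq libraries of 2 gastrocnemius samples were used. The authors deposited 1 table of whole-number read counts per library, for reads ignoring strand, on the gene's strand and on the opposite strand. Reads were placed on mm10 with GENCODE M21, per the labels and the deposited descriptions of the files; how they were trimmed, aligned and counted is not given in the sources used here. Rows naming no gene were kept out of library sizes: reads aligned to several loci (70.4% and 73.3% of reads), unmapped (7.05% and 6.02%) and outside any gene (1.63% and 1.51%). CAST alleles that differ from mm10 could lower a count.

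CPM used same-strand counts. Ratios between genes were log2 ratios of counts + 0.5. Ratios between libraries used CPM + 1 scaled by TMM (edgeR 4.0.16, factors 1.06 and 0.944), with DESeq2 1.42.0 size factors as an alternative. The ratio step was tested on simulated counts with counting error only, which leaves out other variation between libraries. Hairpin sequences and positions came from GENCODE M21, mature sequences from RefSeq. Mir142a was matched as Mir142. A single group allows no test of a condition.

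The members and lists were chosen with earlier results of these data known. Named genes were the members, list genes (values for the leading 4), the 2 genes next to each member on either side and the 3 closest genes. Also named were microRNA genes within 1 Mb, the 3 highest neighbour ratios and Mir23b with Mir27b. Outside this rule, values are given for some other list genes, among them Mir221, Mir222, Mir490 and Mir133a-1.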

Additional observations from a re-analysis of the deposited data

How the results depend on the processing

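The log2 ratio of Mir143 over Mir145a stayed within its SD without a pseudocount and with one of 5 counts. It could not change in the column that ignores strand, where both genes have the same counts. With 2 libraries, leaving out a replicate only gives the value of the other library. These values were 5.11 to 5.13 for this ratio, 82893 to 91040 CPM for Mir143 and 2404 to 2598 CPM for Mir145a. They were −0.07 to −0.04 for the log2 ratio of Mir143 over Mir126a, and 1.67 to 1.68 for that over Mir206. The mean level of Mir143 and of Mir145a was 115883 and 3332 CPM in the column that ignores strand, 17430 and 501 CPM with all reads as the denominator, and 100050.5 and 2877 CPM with library sizes without Mir378a. These denominators are larger or smaller by construction. In the column that ignores strand the log2 ratio of Mir143 over Mir126a reversed to 16.90. Mir126a overlaps Mir126b on the opposite strand, and whether that overlap is the cause was not tested.

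The log2 ratio of replicate 1 over replicate 2 for Mir143 and Mir145a was −0.14 and −0.11 scaled to the total count, −0.36 and −0.33 with DESeq2 size factors, and −0.16 and −0.14 with library sizes without Mir378a. It was −0.33 for Mir143 in the column that ignores strand. All reads as the denominator, an alternative added after seeing the data, gave −0.0090 for Mir143 and 0.014 for Mir145a, a reversed direction for Mir145a. The median of the 261 genes was 0.32 on that scale, above both members. Genes past 2-fold between replicates numbered 14 of 261, or 31 with a minimum of 1 CPM, 2 with 100 CPM and 41 with none. The set of genes compared changes with each minimum, so these counts are not shares of the same set. Other neighbour pairs at or above the ratio of Mir143 over Mir145a numbered 58 of 135. They were 14 of 83 with at least 10 counts of both genes and 19 of 62 where neither hairpin shares 20 bases. With both conditions they were 3 of 40, and with lower genes at 0 taken at 3 counts 46 of 135. These last 2 settings were added after seeing the data. The cause was not tested beyond the construction of each alternative. No paired analysis was possible because the samples form 1 group. With 2 animals, no exact test over samples can pass a 0.05 threshold, and the small SDs have 1 degree of freedom.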
